A study of Mus musculus with 24 samples.

Results

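The Ly6 genes described here are Ly6a, which encodes Sca-1, and its relatives Ly6e, Ly6c1 and Ly6c2. They are the 4 rows with these symbols among the 23361 gene rows of the expression table, chosen as the family of Sca-1, 1 of the 3 surface proteins on which the cells were sorted, by symbol and not by value. RNA was sequenced from spleen cells of mice with acute myeloid leukaemia carrying NRASG12V and Mll-AF9, in 24 libraries of 5 groups. All groups came from leukaemia cells of this genotype on an F1 background of FVB/n and C57/BL/6J, so no normal tissue serves as a control, and the promoters that drive the 2 oncogenes are not given in the sources used here. The groups were unsorted cells (n = 5), MacHigh cells (n = 5), and 3 groups gated as Mac-1 low: Kit-Sca1- (n = 5), Kit+Sca1- (n = 5) and Kit+Sca1+ (n = 4). No group had an added treatment, and the age of the mice is not given in the sources used here. Nothing in the labels says that replicates came from separate animals, so p-values measure the spread between these libraries, which may be technical.

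Ly6 proteins are small, cysteine-rich proteins with a three-finger fold that are held on the outer cell membrane by a glycosylphosphatidylinositol (GPI) anchor. Sca-1 marks blood stem cells and early progenitors in mice and is also carried by mature lymphocytes and endothelium, and its gene is induced by interferons. Ly6E is another interferon-induced member, known from thymocytes and from the entry of several viruses into cells. Ly6C, made from Ly6c1 and Ly6c2, is the surface protein used to tell classical monocytes from patrolling ones, and it is also found on granulocyte precursors and on memory T cells.

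All 4 genes lie within 157 kb of chromosome 15 (build GRCm38). In RefSeq, Ly6e runs from 74955025 to 74959904 on the plus strand. Ly6a (74994877 to 74998031), Ly6c1 (75044018 to 75048920) and Ly6c2 (75108161 to 75112066) follow on the minus strand. The similarity of their transcripts bears on how far the table can tell them apart. The coding sequences of Ly6c1 and Ly6c2, taken from the GENCODE vM21 transcripts, were identical at 384 of 393 bases (97.7%), with an unbroken identical run of 188 bases. Ly6a was identical to Ly6c1 at 83.7% of aligned coding bases and to Ly6c2 at 83.5%, and Ly6e matched the other 3 at 55.1 to 57.1%. The first 120 coding bases of the Ly6C pair, which hold 6 of their 9 differences, are given here with the differing bases in capitals. They lie on the minus strand of GRCm38 in a span that includes an intron, at chr15:75047420-75048511 for Ly6c1 and chr15:75110578-75111667 for Ly6c2.
Ly6c1: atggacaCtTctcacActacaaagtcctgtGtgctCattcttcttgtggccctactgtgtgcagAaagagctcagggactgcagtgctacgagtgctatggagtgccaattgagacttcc
Ly6c2: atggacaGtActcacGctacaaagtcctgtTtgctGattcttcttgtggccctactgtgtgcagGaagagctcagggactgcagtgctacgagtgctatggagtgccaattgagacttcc

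Of all 50-base stretches of the transcripts, 36.7% in Ly6c1 and 33% in Ly6c2 were also found in another gene's transcript, against 8.05% in Ly6a and 0% in Ly6e. At 100 bases the shares were 15.3% in Ly6c1, 15.8% in Ly6c2 and 0% in Ly6a and Ly6e. The read length and the treatment of reads that fit several genes are not given in the sources used here. The division of Ly6C reads between Ly6c1 and Ly6c2 is therefore uncertain, while no 50-base stretch of Ly6e was shared with another gene.

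The promoters of the Ly6C pair are shown because the pair moved in the same direction between several groups (values below). Each line gives the 250 bases before 1 of the 2 transcript starts that the RefSeq promoter table of GRCm38.p6 holds for the gene. That start lies inside the gene span given above, so part of each stretch overlaps the span. The sequences are read 5′ to 3′ on the minus strand and lie at chr15:75048838-75049087 for Ly6c1 and chr15:75111972-75112221 for Ly6c2. Over 216 aligned bases they were identical at 75.9%, with 68 further positions in gaps. Capitals mark a TATA box match (TATAAA, 143 bases before that start of Ly6c1) and an ETS core match (GGAAGT, the core bound by PU.1, 106 bases before that start of Ly6c2).
Ly6c1: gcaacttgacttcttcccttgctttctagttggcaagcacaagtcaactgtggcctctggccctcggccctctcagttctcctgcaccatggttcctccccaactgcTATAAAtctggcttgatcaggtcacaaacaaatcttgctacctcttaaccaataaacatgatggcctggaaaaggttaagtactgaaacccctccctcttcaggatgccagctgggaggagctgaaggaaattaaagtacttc
Ly6c2: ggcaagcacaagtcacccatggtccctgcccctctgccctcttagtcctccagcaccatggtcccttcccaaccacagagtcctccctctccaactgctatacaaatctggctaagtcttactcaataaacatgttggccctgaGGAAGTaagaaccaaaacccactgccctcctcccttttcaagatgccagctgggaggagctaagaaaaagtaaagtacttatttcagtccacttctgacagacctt

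Matches were sought on both strands and describe letters only. TATAAA stands in 13% and GGAAGT in 20% of the 27025 promoters of the table. The interferon-stimulated response element (GAAA, any 2 bases, GAAA; in 3.04% of promoters) and the interferon gamma-activated site (TTCNNNGAA, in 7.18%) had no match in either sequence. The short MYB core (AACNG, in 74.1%) had 3 matches for Ly6c1 and 1 for Ly6c2. Ly6a and Ly6e are named only, without a promoter.

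Expression was given as FPKM, fragments scaled to transcript length and library size, so levels are per transcript length. Any normalization between libraries beyond that is not given in the sources used here. The FPKM of a library summed to between 445970 and 644381, and the number of reads behind a value is unknown. A row was tested where it reached 1 FPKM in at least 4 libraries, which 11599 rows did, all 4 Ly6 genes among them. Differences are between group means of log2(FPKM + 1), with their standard error (SE), and understate the change of low genes. Adjusted p-values are from limma with Benjamini-Hochberg adjustment over all rows tested, and a gene was called at an adjusted p under 0.05. In bulk samples, fewer cells of a type that makes a transcript and less of it per cell cannot be told apart.

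Ly6e and Ly6c2 were among the most abundant messages in these cells, and Ly6a and Ly6c1 were scarce. By group mean, Ly6e ranked between the 51st and the 207th and Ly6c2 between the 29th and the 116th of the 11599 rows in every group. Ly6a ranked between the 7829th and the 10683rd, and Ly6c1 between the 4493rd and the 10454th. In limma's F test over the 4 sorted groups all 4 genes were called, as were 83.2% of all rows tested. The call of Ly6a restates the Sca-1 gate. Adjusted p was 8.07e-09 for Ly6e, 2.14e-08 for Ly6a, 2.18e-05 for Ly6c2 and 0.00105 for Ly6c1.

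**Figure D1:**
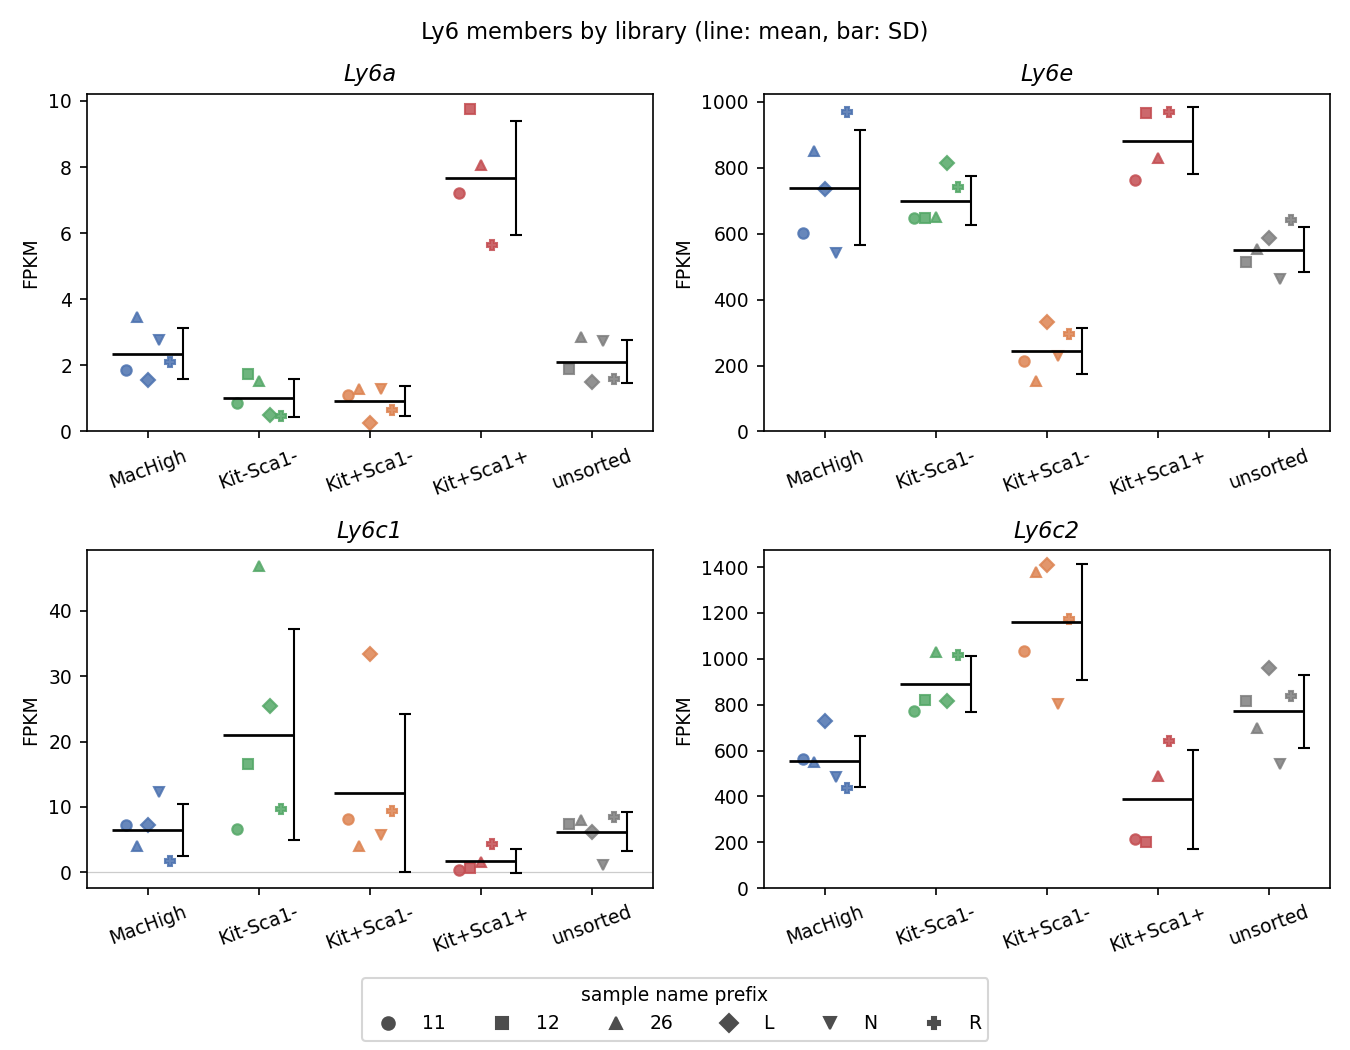
FPKM of Ly6a, Ly6e, Ly6c1 and Ly6c2 (y axes, linear, each with its own range) in each library of the 5 groups. Points are libraries, with the symbol giving the prefix of the sample name; horizontal lines are means and vertical bars SDs. All 4 Kit+Sca1+ libraries lie above the others for Ly6a, and all 5 Kit+Sca1- libraries lie below the others for Ly6e.

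Ly6a, the gene of the gate marker, followed the Sca-1 gate. Its level was 7.20, 9.75, 8.07 and 5.64 FPKM in the 4 Kit+Sca1+ libraries (mean 7.67 ± 1.71, SD). The 5 Kit-Sca1- libraries had 0.873, 1.74, 1.52, 0.499 and 0.466 FPKM (1.02 ± 0.583), and the 5 Kit+Sca1- libraries 1.09, 1.29, 0.254, 1.29 and 0.66 (0.916 ± 0.45). The Kit+Sca1+ libraries lay above all others, without overlap. Since the sort selected for the protein, these differences check the gate and are no result: the mean was 7.53-fold that of Kit-Sca1-, 8.37-fold that of Kit+Sca1- and 3.26-fold that of MacHigh, which the labels do not gate on Sca-1. The other gates showed in their genes as well: Kit averaged 39.8 and 34.3 FPKM in the Kit+ groups and 0.668 in Kit-Sca1-. Itgam, which encodes a chain of Mac-1, averaged 633 FPKM in MacHigh, 267 in both Kit-Sca1- and Kit+Sca1-, and 62 in Kit+Sca1+. It thus differed between the 2 Kit+ groups (Kit+Sca1+ minus Kit+Sca1- -2.03, adjusted p = 3.61e-06).

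MacHigh cells, which the labels do not gate on Sca-1, had Ly6a at 1.87, 3.46, 1.55, 2.77 and 2.11 FPKM (2.35 ± 0.764, n = 5). All 5 values lay above those of Kit+Sca1- (log2 difference -0.81, SE 0.21, for Kit+Sca1- minus MacHigh), and they overlapped those of Kit-Sca1- (-0.75, SE 0.21). The Sca1- groups were sorted against the protein, so these differences also restate the gate and are no result. The 2 Sca1- groups did not differ beyond their spread (log2 difference -0.06, 95% interval -0.50 to 0.37, adjusted p = 0.827), and the sign of this difference turned when libraries were scaled to the same FPKM sum (0.05).

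Ly6e was low in Kit+Sca1- cells and high in the other 3 sorted groups. The 5 Kit+Sca1- libraries held 215, 153, 331, 229.8 and 295 FPKM (245 ± 69.7). The 4 Kit+Sca1+ libraries held 763, 966, 831 and 967 FPKM (882 ± 102), the 5 MacHigh libraries 603, 850.1, 735, 540.1 and 968 (739 ± 175), and the 5 Kit-Sca1- libraries 649, 647, 649.8, 813 and 742 (700.1 ± 74.9). Every library of those 3 groups lay above every Kit+Sca1- library, while the 3 groups overlapped each other.

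The 2 Kit+ groups were gated alike for Mac-1 and Kit, though their Itgam levels differed, as given above. Their Ly6e difference was 1.89 (SE 0.18) in favour of Kit+Sca1+ (adjusted p = 1.41e-08), or 3.6-fold in mean FPKM. Kit+Sca1- also lay below MacHigh (-1.61, SE 0.17, adjusted p = 3.78e-08) and below Kit-Sca1- (-1.56, SE 0.17, adjusted p = 1.57e-07). The order among the high groups was not resolved. Kit+Sca1+ minus MacHigh was 0.28 (95% interval -0.10 to 0.66, adjusted p = 0.227), and Kit-Sca1- minus MacHigh was -0.05 (-0.41 to 0.31, adjusted p = 0.824), with the sign of the latter turning under 2 other scalings. Kit+Sca1+ minus Kit-Sca1- was 0.33 (-0.05 to 0.71, adjusted p = 0.151), and it passed when the prefix of the sample name entered as a block (0.38, adjusted p = 0.0381). Within prefixes Kit+Sca1+ was the higher in 4 of 4 (0.23 to 0.58), while the exact permutation test did not pass (adjusted p = 0.0577).

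Ly6c2, the main Ly6C transcript in every library, ran in the opposite order across the Kit+ groups. The Kit+Sca1- libraries held 1032, 1380.4, 1408, 802 and 1174 FPKM (1159 ± 252, n = 5), and the Kit+Sca1+ libraries 217, 201, 489 and 641 (387 ± 215, n = 4). The lowest Kit+Sca1- library exceeded the highest Kit+Sca1+ library. Kit+Sca1+ minus Kit+Sca1- was -1.73 (SE 0.27, adjusted p = 1.08e-05), so that Kit+Sca1- held 3-fold the mean FPKM. Kit+Sca1+ varied most in proportion: its replicates 1 and 2 lay at 217 and 201, and replicates 3 and 4 at 489 and 641.

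In the other sorted groups Ly6c2 was intermediate. Kit-Sca1- held 771, 819, 1028, 814 and 1015 FPKM (889 ± 122), without overlap with Kit+Sca1+ (-1.37, SE 0.27, adjusted p = 0.000265). MacHigh held 564, 551, 729.8, 484 and 435 FPKM (553 ± 112), below every Kit-Sca1- library and every Kit+Sca1- library. Kit+Sca1- minus MacHigh was 1.06 (SE 0.25, adjusted p = 0.000969) and Kit-Sca1- minus MacHigh 0.70 (SE 0.25, adjusted p = 0.0261), a call lost without MacHigh replicate 4 or 5 or Kit-Sca1- replicate 3 or 5 (adjusted p = 0.0543 to 0.0668). Kit+Sca1- and Kit-Sca1- overlapped (0.36, 95% interval -0.16 to 0.89, adjusted p = 0.251; with libraries scaled to the same FPKM sum, 0.59 and 0.0433). Kit+Sca1- was the higher within 4 of 4 prefixes of the sample name (0.21 to 0.79). With the prefix as a block in limma the adjusted p was 0.153.

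Ly6c2 in Kit+Sca1+ against MacHigh sat at the threshold (-0.67, SE 0.27, adjusted p = 0.0469). The 2 groups overlapped, the exact permutation test gave p = 0.183 (adjusted 0.236), and with only these 2 groups in the fit the adjusted p was 0.136. The call was lost in 16 of 24 fits that left out 1 library, from libraries of every group, and the difference fell to -0.45 without Kit+Sca1+ replicate 1 (adjusted p = 0.203) and to -0.41 without replicate 2 (0.226).

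Ly6c1 varied widely between libraries of the same group. Kit-Sca1- libraries held 6.63, 16.5, 46.9, 25.4 and 9.75 FPKM (21 ± 16.2), Kit+Sca1- libraries 8.09, 4.01, 33.3, 5.71 and 9.33 (12.1 ± 12.1), and MacHigh libraries 7.20, 4.02, 7.21, 12.3 and 1.73 (6.49 ± 3.98). The Kit+Sca1+ libraries held 0.295, 0.735, 1.55 and 4.28 FPKM (1.72 ± 1.79). The Kit+Sca1+ libraries lay below all Kit-Sca1- libraries, and they overlapped those of Kit+Sca1- and MacHigh.

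Kit+Sca1+ was lower in Ly6c1 than Kit-Sca1- (-2.93, SE 0.6, adjusted p = 0.000377) and than Kit+Sca1- (-2.12, SE 0.6, adjusted p = 0.00462). In exact permutation tests of mean FPKM instead of log2 values, both missed the threshold (adjusted p = 0.0605 and 0.0635). Against MacHigh the difference was -1.49 (SE 0.6, adjusted p = 0.0467), and 0.0752 with the prefix as a block. Kit-Sca1- exceeded MacHigh by 1.44 (SE 0.56, adjusted p = 0.0373), which was lost with the block as well (1.37, adjusted p = 0.0569). Neither passed in the exact permutation test (adjusted p = 0.0635 and 0.0823). Leaving out 1 library lost the former in 14 of 24 fits (adjusted p up to 0.148, without Kit+Sca1+ replicate 1). It lost the latter in 5, without MacHigh replicate 2 or 5 or Kit-Sca1- replicate 2, 3 or 4 (adjusted p = 0.0581 to 0.114). Kit+Sca1- did not differ from MacHigh (95% interval -0.54 to 1.80, adjusted p = 0.344) or from Kit-Sca1- (-1.99 to 0.36, adjusted p = 0.245) beyond the spread.

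**Figure D2:**
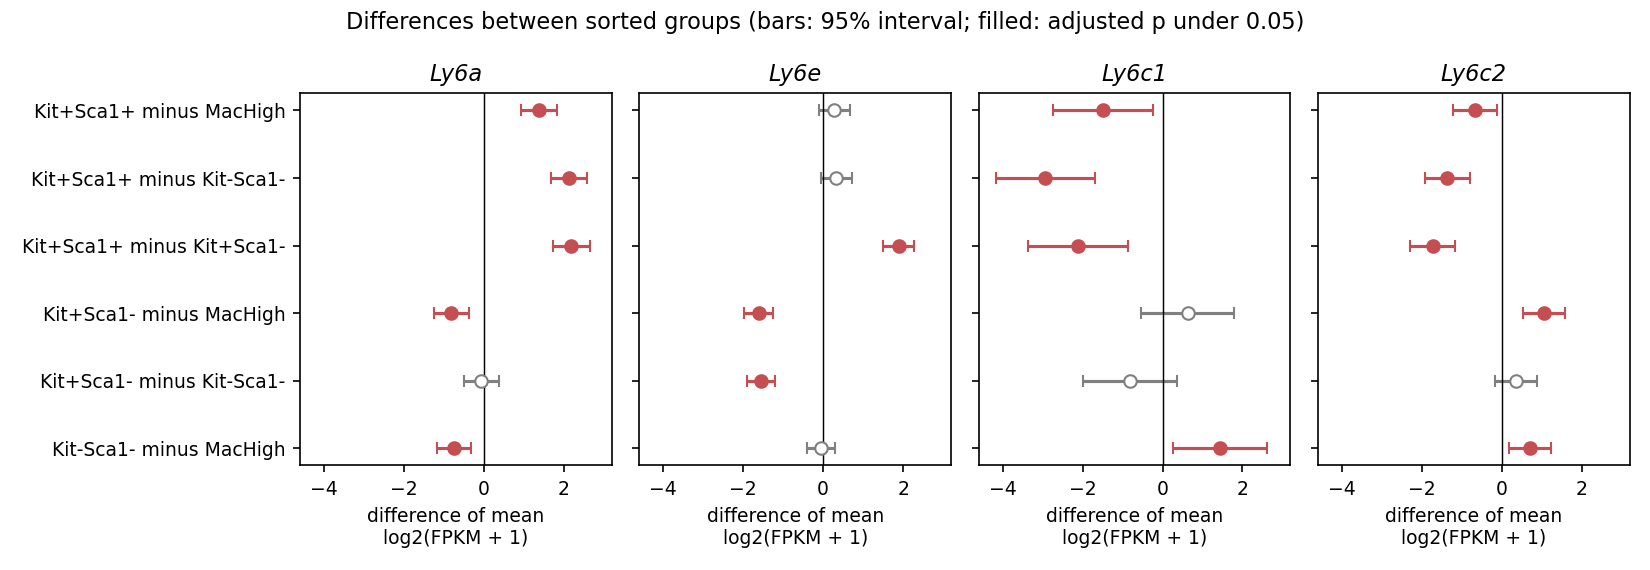
Differences of mean log2(FPKM + 1) (x axis) for the 6 pairs of sorted groups (y axis, first group minus second), 1 panel per gene. Points are limma estimates with 95% intervals, and filled points have an adjusted p under 0.05. Ly6e stands at -1.61 and -1.56 where Kit+Sca1- is compared with MacHigh and Kit-Sca1-, while Ly6c2 stands at 1.06 and 0.36.

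Read by comparison, all 4 genes were called between Kit+Sca1+ and Kit+Sca1-, where 55.2% of all rows were called. Between Kit+Sca1+ and MacHigh 3 of 4 were called (46% of all rows), and likewise 3 of 4 between Kit+Sca1+ and Kit-Sca1- (45.2%), between Kit+Sca1- and MacHigh (62.8%) and between Kit-Sca1- and MacHigh (50.8%). Ly6e was the 1 gene of 4 called between Kit+Sca1- and Kit-Sca1- (50.2%). The groups' values did not overlap for 3 of 4 genes between Kit+Sca1+ and Kit-Sca1- (33.8% of all rows), between Kit+Sca1+ and Kit+Sca1- (39.4%) and between Kit+Sca1- and MacHigh (45%). They did not overlap for 1 of 4 between Kit+Sca1+ and MacHigh (37.5%), Kit+Sca1- and Kit-Sca1- (28.8%) and Kit-Sca1- and MacHigh (35.7%). These counts include Ly6a, whose differences restate the Sca-1 gate. Ly6a was called in every comparison but Kit+Sca1- against Kit-Sca1-. Its values overlapped only there and between Kit-Sca1- and MacHigh. With about every other row called in most comparisons, the number of Ly6 genes called says little by itself, and the sizes and directions carry the description.

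By group mean, unsorted cells lay between the sorted groups for all 4 genes. Ly6a was at 1.88, 2.86, 1.48, 2.74 and 1.59 FPKM there (2.11 ± 0.648), Ly6e at 514, 553, 588, 463 and 640.4 (552 ± 68), Ly6c1 at 7.43, 8.06, 6.11, 1.08 and 8.46 (6.23 ± 3.01) and Ly6c2 at 818, 697, 960.0, 540.2 and 839 (771 ± 159). Against them Kit+Sca1+ was called for 3 of 4 genes (33% of all rows called): Ly6a by 1.48, Ly6e by 0.68 and Ly6c2 by -1.14. The Ly6a differences of the groups gated on Sca-1 against unsorted cells restate the gate and are no result. Kit+Sca1- was called for 2 of 4 (47.4% of all rows), with Ly6e at -1.21 and Ly6a at -0.71, the latter not past the threshold under quantile normalization (adjusted p = 0.295). Its Ly6c2 difference of 0.58 had an adjusted p of 0.0634, or 0.0381 with the prefix as a block, and it also passed without unsorted replicate 3, Kit+Sca1- replicate 4 or Kit+Sca1+ replicate 1, 2 or 4 (0.0316 to 0.049). Ly6c1 of Kit+Sca1+ minus unsorted cells (-1.45, adjusted p = 0.0681) passed without unsorted replicate 4, Kit+Sca1- replicate 3 or Kit+Sca1+ replicate 4 (0.0186 to 0.0428). It also passed at pseudocounts of 0.1 (-2.07, adjusted p = 0.0359) and 0.01 (-2.20, 0.0327), under library weights (-1.72, 0.00554), and with a block by the number in the sample title (-1.54, 0.0461).

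Kit-Sca1- differed from unsorted cells in 1 of 4 genes (14.6% of all rows). That gene was Ly6a, which restates the gate, at -0.65 (adjusted p = 0.0395, and as high as 0.185 under other processing). This call was lost without unsorted replicate 1, 2 or 4 or Kit-Sca1- replicate 1, 4 or 5 (0.0603 to 0.125), and the exact permutation test did not make it (adjusted p = 0.0635). For Ly6e the exact permutation test passed (exact p = 0.00794, adjusted 0.0187) where limma did not (0.35, SE 0.17, adjusted p = 0.187), and Kit-Sca1- was higher within 4 of 4 prefixes. MacHigh differed in 0 of 4 by limma and 0 by the exact permutation test, with 1 at an unadjusted p under 0.05 (39.4% of all rows called). That gene was Ly6e (0.40, 95% interval 0.04 to 0.76, adjusted p = 0.0729), and it passed with the prefix as a block (0.43, adjusted p = 0.0166) and without MacHigh replicate 4 (0.0306) or Kit+Sca1- replicate 2 (0.0401). No overlap with unsorted cells was found for 2 of 4 genes in Kit+Sca1+ (30.2% of all rows), 2 in Kit+Sca1- (32.3%), 1 in Kit-Sca1- (13.3%) and 0 in MacHigh (31.7%). Ly6a was 1 of the 2 in both Kit+ groups, which restates the gate. Erythroid markers, summed over 10 genes, reached 347 to 1953 FPKM in unsorted cells and at most 102 in any sorted library, and their part in these differences was not tested.

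The opposite order of Ly6e and Ly6c2 was followed within libraries, where scaling between libraries has no bearing, by a ratio chosen after the values had been seen. Of the summed FPKM of the 4 genes, Ly6e made up 70.4% ± 10.9 for Kit+Sca1+ (SD, n = 4). Its share was 56.5% ± 8.03 for MacHigh, 43.6% ± 4.26 for Kit-Sca1-, 41.8% ± 3.58 for unsorted cells and 17.6% ± 4.63 for Kit+Sca1- (n = 5 each). Ly6c2 made up 28.9% in Kit+Sca1+ and 81.6% in Kit+Sca1-, and Ly6a no more than 0.628% of any group on average. The 2 abundant members thus traded places: every Kit+Sca1+ library held 1.51 to 4.8 times as much Ly6e as Ly6c2, and every Kit+Sca1- library 3.49 to 9.01 times as much Ly6c2 as Ly6e.

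The mean log2 ratio of Ly6e to Ly6c2 was highest for Kit+Sca1+ (1.36), followed by MacHigh (0.41), Kit-Sca1- (-0.34), unsorted cells (-0.46) and Kit+Sca1- (-2.26). By exact permutation, two-sided, 8 of the 10 pairs of groups reached p = 0.00794 (adjusted 0.00992), the smallest that these group sizes allow. In Kit+Sca1+ against Kit+Sca1- and Kit+Sca1- against MacHigh both genes already differed without overlap, in opposite directions. For those pairs the outcome was fixed once the ratio was chosen and adds nothing to the single genes. The exceptions were Kit+Sca1+ against MacHigh (exact p = 0.0635) and Kit-Sca1- against unsorted cells (exact p = 0.437).

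**Figure D3:**
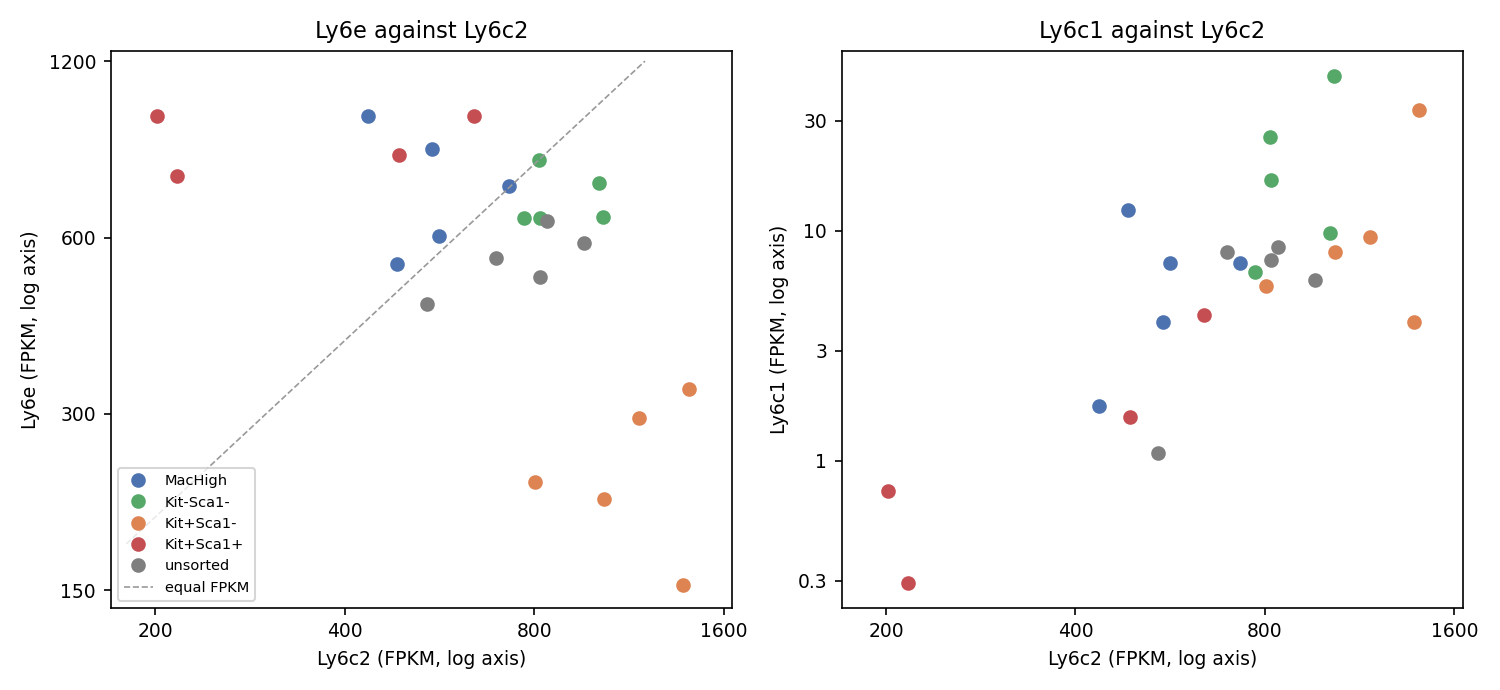
Ly6e against Ly6c2 (left) and Ly6c1 against Ly6c2 (right), in FPKM on log axes, with 1 point per library coloured by group and a dashed line at equal FPKM on the left. The 4 Kit+Sca1+ and 5 MacHigh libraries lie above that line and the 5 Kit+Sca1- libraries furthest below it.

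Ly6c1 contributed between 0.37% (Kit+Sca1+) and 2.24% (Kit-Sca1-) of the summed Ly6C level on average. The log2 ratio of Ly6c2 to Ly6c1 averaged 7.19 for Kit+Sca1+, 6.89 for unsorted cells, 6.81 for Kit+Sca1-, 6.37 for MacHigh and 5.63 for Kit-Sca1-. None of the 10 pairs of groups passed in exact permutation tests of this ratio (lowest exact p = 0.0317, adjusted 0.238). With the 2 rows summed to 1, Kit+Sca1+ minus Kit+Sca1- was -1.74 (adjusted p = 1.1e-05), close to Ly6c2 alone. Across the 24 libraries, deviations from the group means were related by r = 0.55 between Ly6c1 and Ly6c2, -0.47 between Ly6a and Ly6e and -0.46 between Ly6a and Ly6c2, given as a description of libraries that share prefixes.

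Markers of other cells differed between the sorted groups, not always with the highest level in Kit+Sca1+. Of 11 listed symbols of red pulp macrophage genes 10 had a row, none at 0. Their sum per library ran from 679 to 1802 FPKM for Kit+Sca1+. It ran from 322 to 667 for MacHigh, from 78.3 to 109 for Kit+Sca1- and from 37.1 to 95.3 for Kit-Sca1-. The sum of the 8 listed conventional dendritic cell genes, none at 0, ran from 384 to 689.5 FPKM for Kit+Sca1+, from 136 to 384 for MacHigh and up to 82.7 for the other 2 sorted groups. The 9 measured neutrophil genes ran, in sum, from 2532 to 8375 FPKM for Kit+Sca1+ and from 6157 to 39630.3 for Kit+Sca1-. Ngp was listed at 0 in every Kit+Sca1- library and averaged 1732 to 6917 FPKM in the other groups. Whether that 0 is a missing value was not tested, and the Kit+Sca1- sum lacks this gene. The Kit+Sca1+ libraries with Ly6c2 at 217 and 201 FPKM had red pulp sums of 1240 and 1802, and those with 489 and 641 had sums of 679 and 1029. The 8 natural killer cell genes, none at 0, summed to 39.3 to 97.5 FPKM for Kit+Sca1+ and to 8.08 to 24.2 for Kit+Sca1-. Their sum was 45.0 to 180 FPKM for Kit-Sca1- and 28.8 to 58.3 for MacHigh. The sums of the 10 T cell genes overlapped, at 12.1 to 29.1 FPKM for Kit+Sca1+ and 9.58 to 29.7 for Kit+Sca1-, with Cd3e and Cd2 at 0 in both groups. So did those of the 7 measured B cell genes, at up to 32.3 FPKM for Kit+Sca1+ and 18.9 to 29.9 for Kit+Sca1-, with Pax5 at 0 in both and Cd79a at 0 in the former. For Kit-Sca1- the T cell genes summed to 25.8 to 32.2 FPKM and the B cell genes to 21.9 to 28.1. For MacHigh these sums were 9.68 to 12.0 and 32.9 to 61.7. The part of such cells in the Ly6 differences was not tested. Ly6g, the usual neutrophil member of the family, was not analysed here.

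Interferon response genes, a list of 33 tested genes without the Ly6 members, were compared because Ly6a and Ly6e belong to the same response. In Kit+Sca1+ 23 were higher and 3 lower than in Kit+Sca1- (median log2 difference 0.90, against -0.02 over all rows, of which 55.2% were called), and 22 were higher and 2 lower than in Kit-Sca1- (median 0.67, against -0.03, with 45.2% of all rows called). Ly6e differed by 1.89 in the former comparison and by 0.33, not called, in the latter. Against MacHigh, 25 genes were lower and 2 higher in Kit+Sca1- (median -1.03, against 0.03, with 62.8% of all rows called), and 27 were lower and 1 higher in Kit-Sca1- (median -0.86, against -0.02, with 50.8%). Ly6e was called in the former (-1.61) and not in the latter (-0.05). In Kit+Sca1- 5 genes were higher and 15 lower than in Kit-Sca1- (median -0.31, against -0.02, with 50.2%). Ly6e differed there by -1.56. In Kit+Sca1+ 4 genes were higher and 9 lower than in MacHigh (median -0.02, against 0.03, with 46%). The Ly6e difference there was 0.28, not called.

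The 2 most abundant genes of the list differed from each other in pattern. Ifi27l2a was highest in MacHigh (123 ± 59.1 FPKM) and lowest in Kit+Sca1- (6.996 ± 4.09 FPKM), with Kit-Sca1- at 42.9 ± 18.2 and Kit+Sca1+ at 29.9 ± 7.18. Irf1, a transcription factor of the response, was highest in Kit+Sca1+ (55.9 ± 8.32 FPKM), followed by MacHigh (45.7 ± 8.41), Kit+Sca1- (32.7 ± 7.47) and Kit-Sca1- (29.8 ± 7.11). Within MacHigh, the libraries with the highest Ly6e (850.1 and 968 FPKM) also had the highest sums of the interferon genes (811 and 685 FPKM) and the lowest sums of neutrophil genes (6393 and 6261). They also had the highest sums of red pulp macrophage genes (667 and 545 FPKM) and of conventional dendritic cell genes (354 and 384 FPKM) in MacHigh. Other groups differed from MacHigh in this. The library with the highest Ly6e had the lowest interferon sum in Kit-Sca1- (813 and 237 FPKM) and in Kit+Sca1- (331 and 228 FPKM). In Kit+Sca1+ the library with the lowest Ly6e (763 FPKM) had the lowest sum (454 FPKM). Whether these levels are linked was not tested.

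Genes of Ly6C-high and patrolling monocytes, 14 without Ly6c1 and Ly6c2, were set beside Ly6c2. In Kit+Sca1-, the group highest in Ly6c2, 13 were lower and 1 higher than in MacHigh (median -3.50, against 0.03 over all rows, of which 62.8% were called), and 12 were lower and 1 higher than in Kit-Sca1- (median -2.41, with 50.2% of all rows called). In Kit+Sca1+, the group lowest in Ly6c2, 10 were higher and 2 lower than in Kit+Sca1- (median 0.86, with 55.2% of all rows called). In the direction of Ly6c2, 9 were lower and 3 higher in Kit+Sca1+ than in Kit-Sca1- (median -1.50, with 45.2%), and 11 were lower and 1 higher than in MacHigh (median -2.38, with 46%). Their summed level ran from 2328 to 2623 FPKM over the MacHigh libraries, from 1709 to 1902 over Kit-Sca1-, from 1095 to 1359 over Kit+Sca1+ and from 519 to 713 over Kit+Sca1-. Irf8, a transcription factor of monocytes and dendritic cells, reached 648 ± 142 FPKM in Kit+Sca1+, where MacHigh had 214 ± 39.6 and Kit+Sca1- had 73 ± 53.4.

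Genes of stem and progenitor cells that are used alongside Sca-1 were compared next. Of 10 tested genes, which include the gate marker Kit, 9 were higher and 0 lower in Kit+Sca1+ than in Kit+Sca1- (median 1.73, with 55.2% of all rows called). Against MacHigh 7 were higher and 0 lower (median 2.02, with 46%), and against Kit-Sca1- 6 were higher and 2 lower (median 2.20, with 45.2%). The 2 lower genes were Cd34 (31.0 FPKM for Kit+Sca1+ and 69.4 for Kit-Sca1-) and Gata2 (5.50 and 15.5 FPKM). Flt3, a cytokine receptor of multipotent progenitors that is also counted among the dendritic cell markers, averaged 127 ± 9.65 FPKM over the Kit+Sca1+ libraries and at most 22.2 over any other group. Cd48, a surface protein of progenitors and of most blood cells, had 153 ± 10.3 FPKM for Kit+Sca1+ and 176 ± 31.4 for MacHigh (adjusted p = 0.437), and was low, like Ly6e, for Kit+Sca1- (53.9 ± 17.4).

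The machinery that makes and attaches GPI anchors, on which every member depends, differed in both directions. Of its 28 genes, 4 were higher and 8 lower in Kit+Sca1+ than in Kit+Sca1- (median -0.18), or 42.9% called against 55.2% of all rows. In Kit+Sca1- 11 were higher and 5 lower than in MacHigh (median 0.09), or 57.1% against 62.8%, and in Kit+Sca1+ 6 were higher and 6 lower than in MacHigh (median 0.05), or 42.9% against 46%. Dpm3, a subunit of the dolichol-phosphate mannose synthase, ranged from 58.6 to 81.9 FPKM over the group means. Pigt, a subunit of the enzyme that attaches the anchor, ranged from 60.2 to 75.3. Wider ranges, picked after the values were seen, included those of Piga, a subunit of the enzyme of the first step (6.24 FPKM for MacHigh to 17.2 for Kit+Sca1-), and Pigf (7.75 for Kit+Sca1- to 17.2 for Kit+Sca1+).

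**Figure D4:**
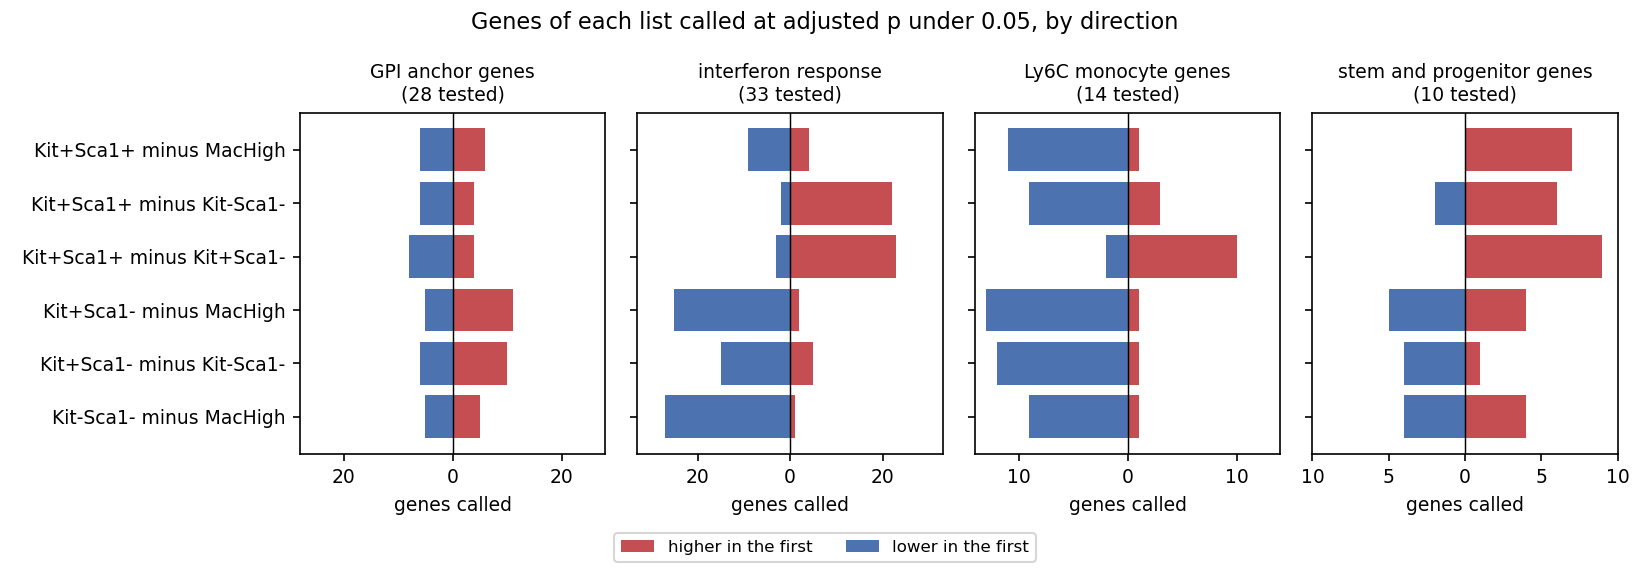
Number of genes called at an adjusted p under 0.05 (x axis, higher to the right in red and lower to the left in blue) in 4 gene lists, for the 6 pairs of sorted groups (y axis, first group minus second). Interferon genes are higher in 23 and 22 of 33 cases in Kit+Sca1+ against Kit+Sca1- and Kit-Sca1-, and monocyte genes are lower in 13 of 14 in Kit+Sca1- against MacHigh.

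Beyond these 4, the wider Ly6 and uPAR family was mostly silent: of 40 rows with such symbols, 9 were tested, the 4 members included. Plaur, the urokinase receptor, fell from 149 FPKM in MacHigh to 14 in Kit+Sca1+ (-3.33, SE 0.26, adjusted p = 7.98e-10) and had 100.4 FPKM for Kit-Sca1- and 70 for Kit+Sca1-. The gene 9030619P08Rik, a row of this family list on chromosome 15 (75427606 to 75431829), had its highest mean in Kit+Sca1+ (10.9 ± 11.7 FPKM), where replicate 1 had 28.2 FPKM and the others 8.16, 3.23 and 4.12. Kit+Sca1- followed with 3.47 FPKM, and Kit-Sca1- (0.386) and MacHigh (0.324) were low. Its difference between Kit+Sca1+ and MacHigh was 2.75 (SE 0.42, adjusted p = 1.23e-05), in the direction of Ly6a. Without Kit+Sca1+ replicate 1 the mean was 5.17 FPKM and the difference 2.17 (SE 0.34, adjusted p = 2.72e-05), a check chosen after the values were seen. In Kit+Sca1- minus MacHigh the 2 genes went opposite ways. There 9030619P08Rik was higher (1.65, SE 0.40, adjusted p = 0.000941) and Ly6a lower (-0.81, adjusted p = 0.00174).

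The other 3 tested rows were Ly6g5b, Ly6d and Ly6k. Ly6g5b, on chromosome 17, was highest in Kit+Sca1- (17 FPKM; 3.1 for Kit+Sca1+; Kit+Sca1+ minus Kit+Sca1- -1.96, SE 0.36, adjusted p = 6.67e-05), in the direction of Ly6c2. Ly6d, a marker of early lymphoid cells, had 1.41 FPKM for Kit+Sca1+ and 0.112 for Kit+Sca1- (1.11, SE 0.22, adjusted p = 0.000179). It had 0.931 FPKM for Kit-Sca1-, not called against Kit+Sca1+ (0.41, SE 0.22, adjusted p = 0.130), and 0.0491 for MacHigh. Ly6k had 2.33 FPKM for Kit-Sca1- and 0.46 for MacHigh (1.20, SE 0.24, adjusted p = 0.000216).

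The rows most like each gene in pattern were found by the Pearson correlation of log2(FPKM + 1) over the 24 libraries, among 10864 candidates that share libraries and depth, and are a description. Nearest to Ly6a were Sfi1 (r = 0.94), Igf1 (0.93) and Slco2b1 (0.92). Igf1, a growth factor gene, had 9.08 FPKM for Kit+Sca1+, 1.79 for MacHigh, and 0.0507 and 0.0584 for Kit-Sca1- and Kit+Sca1-. Nearest to Ly6e were Ly9 (0.97), a lymphocyte surface receptor of the SLAM family, Ly86 (0.96), the partner of the receptor RP105, and Rasa4 (0.96), a RAS GTPase-activating protein. Ly86 had 192 FPKM for MacHigh, 162 for Kit+Sca1+, 151 for Kit-Sca1- and 48.8 for Kit+Sca1-. Despite the first letters of their names, Ly9 and Ly86 are no Ly6 genes.

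Nearest to Ly6c2 were Prune (r = 0.95), Txnl4b (0.92) and Anxa3 (0.92). Anxa3, an annexin of granulocytes, had 309 FPKM for Kit+Sca1-, 151 for Kit-Sca1-, 110.5 for MacHigh and 79.3 for Kit+Sca1+, the same order as Ly6c2. The nearest rows to Ly6c1 were less alike, at r = 0.79 for Kcnab2, 0.79 for Slc35c1 and 0.78 for Fam83a.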

How the data were processed

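RNA of 24 libraries was measured by RNA-seq. The authors deposited their values as FPKM, in 1 table of 23361 gene rows, with a column for each library. Tools named in the submitters' processing notes are TopHat2 2.0.4 and Cuffdiff, and the build is mm10; the gene annotation and any normalization between libraries are not given in the sources used here, and the unit comes from the table's name and values. A value of 0.001 stands in place of 0. Groups were taken from the sample titles. Without counts, depth and counting error are unknown.

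Values were transformed to log2(FPKM + 1), so a pseudocount of 1, and the rows that reached 1 FPKM in 4 or more libraries were fitted in 1 model of 5 groups over 24 libraries with limma 3.58.1 in R 4.3.3 (variance trend, moderated tests, Benjamini-Hochberg within each of 10 comparisons, threshold 0.05). Single genes were also tested by exact two-sided permutation, adjusted over 40 tests. The fit was tested on simulated data. The 4 genes, the gene lists and the rules were chosen with earlier results of these data known. Named are the 4 genes, every tested row of the family list, the 3 rows nearest in pattern to each and the 2 most abundant genes of the interferon, monocyte, progenitor and GPI lists, except a gene that is not reported here; of marker lists only sums are given, with markers listed at 0 named after their values were seen.

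The sample names carry 6 prefixes that recur across groups. Of 38 library pairs with the same prefix, 34 had deviations from the group means correlated over 0.1 (mean 0.24, against -0.05 for other pairs), and in 7 of 10 comparisons every pair did, so the prefix was used as a block in an alternative fit. The replicate number of the titles did so in 22 of 46 pairs. Other alternatives changed the pseudocount, filter, scaling, weights and libraries included. Plots were made by matplotlib 3.10.9 under Python 3.11.15.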

Additional observations from a re-analysis of the deposited data

Results flagged for a closer look

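Ly6c1 in unsorted replicate 4 stood apart from the other 4 unsorted libraries, at 1.08 FPKM against 6.11 to 8.46. On the scale of log2(FPKM + 1), its gap to the nearest library was 0.811 of the group's range. Dixon's critical value for 5 libraries is 0.71. The gap was not taken on the FPKM values themselves. Such a gap was sought in 25 sets of libraries, and chance marks about 1 set in 20. Ly6c2 in that library was also the lowest of its group, at 540.2 FPKM.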

How the results depend on the processing

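Of the 24 differences of a Ly6 gene between sorted groups, 15 kept their direction and their side of the threshold under every alternative of the limma fit. Scaling to the same FPKM sum gave Ly6a 0.0502 (Kit+Sca1- minus Kit-Sca1-, direction turned), Ly6e 0.0504 (Kit-Sca1- minus MacHigh, turned), Ly6c2 0.59 (Kit+Sca1- minus Kit-Sca1-, now passed), and for Kit+Sca1+ minus MacHigh Ly6c1 -1.41 and Ly6c2 -0.55, both lost. It turned Ly6a (-0.0308) and Ly6c1 (-0.115) of MacHigh minus unsorted. Quantile normalization turned the same Ly6a and Ly6e differences (0.147 and 0.0649) and lost Ly6a of Kit+Sca1- minus MacHigh (-0.47) and Ly6c2 of Kit+Sca1+ minus MacHigh (-0.45). A common upper quartile lost Ly6c1 (-1.44) and Ly6c2 (-0.59) of Kit+Sca1+ minus MacHigh and turned Ly6c1 of MacHigh minus unsorted (-0.00824), as did library weights (-0.305). Without a filter Ly6c1 (-1.49) and Ly6c2 (-0.67) of Kit+Sca1+ minus MacHigh and Ly6c1 of Kit-Sca1- minus MacHigh (1.44) were lost; so was Ly6c2 with only those 2 groups fitted (-0.67). Ly6c1 of Kit-Sca1- minus MacHigh was lost at pseudocounts of 0.1 (1.61) and 0.01 (1.63). With the prefix as a replicate block, Ly6c1 of Kit+Sca1+ minus MacHigh (-1.39) and of Kit-Sca1- minus MacHigh (1.37) were lost and Ly6e of Kit+Sca1+ minus Kit-Sca1- (0.38; 0.41 with library weights) passed; the block changed 5 of 40 calls in all. Permuting mean FPKM lost Ly6c1 of Kit+Sca1+ minus Kit+Sca1- (-10.4) and minus Kit-Sca1- (-19.3). The cause was not tested. Genes called between Kit-Sca1- and unsorted cells numbered 1692, but 3115 with the prefix block, 4121 with weights and 1114 (without Kit-Sca1- replicate 4) to 2142 with 1 library left out. Leaving out 1 library at a time gave, for Kit+Sca1+ minus MacHigh, -1.88 to -1.20 (Ly6c1) and -0.97 to -0.41 (Ly6c2); for Kit-Sca1- minus MacHigh, 1.09 to 1.75 (Ly6c1), 0.62 to 0.80 (Ly6c2) and -0.16 to 0.0531 (Ly6e); for Kit+Sca1- minus Kit-Sca1-, -0.17 to 0.0808 (Ly6a); and for MacHigh minus unsorted, -0.0065 to 0.20 (Ly6a) and -0.37 to 0.36 (Ly6c1). Against unsorted cells, 517 of 564 alternative values kept direction and side.

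Scaling to the same FPKM sum put the median difference over all genes at 0.32 (Kit+Sca1- minus MacHigh), -0.21 (Kit+Sca1+ minus Kit+Sca1-) and 0.18 (Kit+Sca1- minus Kit-Sca1-), against 0.03, -0.02 and -0.02 as deposited, and the share of calls that were higher there became 71.9% against 51.7%, 32% against 48.5% and 71.6% against 47.7%. Elsewhere it became 63% against 51.3% for Kit+Sca1+ minus MacHigh, 24.3% against 53.9% for MacHigh minus unsorted and 9.01% against 38.9% for Kit-Sca1- minus unsorted. Depth is unknown, so the counting error of values near 1 FPKM, as for Ly6a, could not be given.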
